A study of Homo sapiens with 6 samples.

Results

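The genes described here are the 2 families of human zinc transporters, the metallothioneins and MTF1, the transcription factor that senses zinc. They were taken by gene symbol, without use of any measured value, as the rows with a single symbol SLC30A or SLC39A followed by a number, MT1 followed by letters, MT2A, MT3, MT4 or MTF1. This gave 46 rows for 41 of the 24930 genes tested, with 10 SLC30A genes, 14 SLC39A genes, 16 metallothionein genes and MTF1. Only SLC39A7 had more than 1 row. Their transcripts were read on 3 Affymetrix whole-transcript arrays of the drug-resistant line T24/THP and 3 of its parental bladder cancer line T24. Both lines carry the cell line label T24, and no genotype was used that could check the descent. The labels describe T24/THP as the outcome of repeated 24 h treatments with the anthracycline pirarubicin, stepped up from 5 to 1000 ng/ml in more than 6 months and then renewed every 2 to 3 weeks. T24 was kept in culture over the same time. How long T24/THP had been off the drug when RNA was taken is not in the labels. Since there was 1 selection, replicate spread here is that of samples from 1 pair of lines, and other selections may differ.

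Zinc is held at a very low free level in the cytosol. SLC30A proteins (ZnT) move it out of the cytosol, either out of the cell or into organelles, and SLC39A proteins (ZIP) move it in from outside or from organelles. Metallothioneins are small cysteine-rich proteins that bind zinc, copper and cadmium. When cytosolic zinc rises, MTF1 binds metal response elements in DNA and switches on metallothionein genes and SLC30A1. Metallothioneins are also known to react with oxidants and have been studied in resistance to anticancer drugs.

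The 6 arrays had medians of 3.71 to 3.79 log2 units. Of 17 epithelial and bladder carcinoma markers, KRT7, KRT8 and KRT18 lay above the background range in both lines. The other 14, among them all 4 uroplakins, CDH1 and GATA3, lay within that range. All 6 leukocyte and all 5 fibroblast markers also lay within it, as did 3 of 4 endothelial markers, while CDH5 averaged 13.12 in T24/THP and 12.30 in T24, and its part in the results was not tested. The background range ended at 5.51 in T24/THP and 5.54 in T24, which is the brightest of 23 background control probe sets of an array, averaged within the line. T24 replicate 3 had the brightest of these, at 6.38. Levels are log2 intensities and were not compared between genes, since each probe set has its own response. In bulk RNA, a change in every cell and a change in the share of cells cannot be told apart.

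Across the 41 genes 1 large difference stood among many small ones. SLC30A1 rose 3.39-fold in T24/THP, and the other 12 genes that passed the test differed by 1.12- to 1.76-fold. A gene passed the test at an adjusted p under 0.05 (limma, Benjamini-Hochberg over all 24930 genes), and was called if it also differed by at least 2-fold. By the first rule 8 of the 41 genes rose and 5 fell, where 33.1% of all genes passed, 15.1% higher and 18.0% lower. By the second rule 1 rose and 0 fell, where 6.62% of all genes were called, 2.85% higher and 3.77% lower. The arrays of the lines did not overlap for 17 genes, 11 of them higher and 6 lower in T24/THP, where 45.2% of all genes did not overlap, 22.0% higher and 23.2% lower. An unadjusted p under 0.05 was found for 14 of the 41, where 40.3% of all genes had one. The numbers of genes that passed were thus close to the share over all genes, dim genes included. The median difference was 0.10 against 0.01 over all genes. Of the 41 genes, 12 lay within the background range in both lines (57.8% of all genes did), and 28 lay above it in both.

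**Figure D1:**
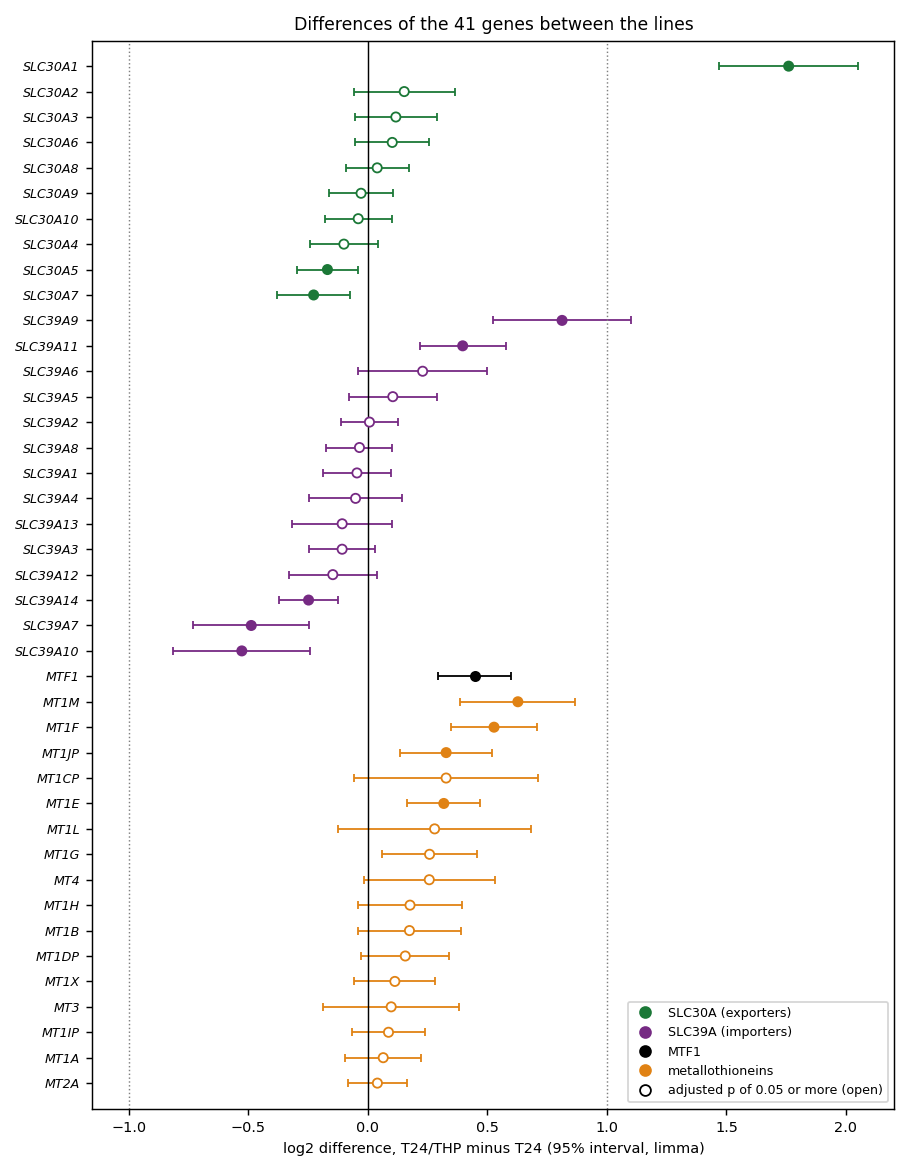
Log2 difference between T24/THP and T24 for the 41 genes (horizontal axis, 95% interval from limma), ordered within each family, with filled points for an adjusted p under 0.05 and dotted lines at a 2-fold difference. SLC30A1 stands alone beyond the dotted line at 1.76, and all 16 metallothioneins lie at or above 0.04.

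SLC30A1 encodes ZnT1, the exporter that carries zinc across the plasma membrane and out of the cell. Its level was 8.47, 8.80 and 8.83 log2 units in the 3 T24/THP arrays, against 6.78, 6.91 and 7.13 in the 3 T24 arrays. Every T24/THP array lay more than 1 unit above every T24 array. The difference was 1.76 ± 0.12 (SE) on the log2 scale, or 3.39-fold with a 95% interval of 2.77 to 4.14 (adjusted p of 3.42e-05, limma). It was the 246th largest rise of the 24930 genes, and SLC30A1 was the 1 member called in the test against a 2-fold difference itself. A separate unnamed transcript cluster that the deposited annotation places in sense on an exon of SLC30A1 read 6.59, 6.29 and 6.98 in T24/THP and 5.91, 6.02 and 5.91 in T24. Its difference of 0.67 ± 0.16 (SE) passed a fit of all 65854 transcript clusters (adjusted p of 0.0318, limma). The rise was smaller there, with a 95% interval of 0.28 to 1.06 against 1.45 to 2.07 for the named cluster in the same fit. The 2 clusters thus share the direction and disagree in size, and which transcripts each one reads was not tested. In T24 the unnamed cluster lay close to the background range, which ended at 5.54. Its value of 5.91 in T24 replicate 3 was under the brightest background probe set of that array, at 6.38. Whether closeness to the background made the rise smaller there was not tested. SLC30A1 (TC01003796.hg.1) lies on chromosome 1 at 211744910 to 211752099 on the minus strand, and the unnamed cluster (TC01006089.hg.1) at 211751385 to 211751721 (GRCh37).

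The start of SLC30A1 is shown because it carries the core of the metal response element, the site that MTF1 binds. The core was searched as TGCACNC and TGCGCNC on both strands of the RefSeq windows of GRCh38.p14, from 250 bases before to 50 after each gene's start, with overlapping matches counted. Capitals mark matches in the 250 bases before the start, at chr1:211579162-211579411 on the minus strand, written 5′ to 3′ along the gene.
SLC30A1: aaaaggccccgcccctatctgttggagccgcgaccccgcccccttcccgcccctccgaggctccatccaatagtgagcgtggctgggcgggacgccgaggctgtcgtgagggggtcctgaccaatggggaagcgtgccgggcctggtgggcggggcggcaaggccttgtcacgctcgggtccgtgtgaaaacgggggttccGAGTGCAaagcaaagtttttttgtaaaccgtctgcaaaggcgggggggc
The window held 2 matches, both on the opposite strand. They began at −49 and at 25 relative to the start, the second beyond the printed stretch. Of 35116 windows in the table, 29.6% held at least 1 match and 8.60% at least 2. A match is a run of letters and not a measured binding site.

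The other SLC30A genes differed little. Of the 10 genes 1 rose and 2 fell, with a median difference of 0.0050. SLC30A5 and SLC30A7 encode transporters of the early secretory pathway and Golgi, which supply zinc to secreted enzymes. SLC30A7 was 11.54, 11.40 and 11.41 in T24/THP and 11.61, 11.71 and 11.70 in T24, a difference of −0.23 ± 0.06 (SE, adjusted p of 0.0302, limma). SLC30A5 was 10.26, 10.28 and 10.31 in T24/THP and 10.44, 10.42 and 10.50 in T24, a difference of −0.17 ± 0.05 (adjusted p of 0.0476, limma). The arrays of the lines did not overlap for either gene. Neither fall was stable, since SLC30A5 passed in 3 and SLC30A7 in 6 of 14 alternative analyses. After removal of the level dependence of the difference they were at −0.04 (adjusted p of 0.641) and −0.08 (0.439).

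SLC30A6, the partner of SLC30A5 in the secretory pathway, differed by 0.10 (95% interval −0.05 to 0.26). SLC30A9, a mitochondrial zinc exporter, differed by −0.03 (−0.16 to 0.11), and SLC30A4, an endosomal transporter, by −0.10 (−0.24 to 0.04). None of these 3 passed the test, and their intervals exclude a 2-fold difference. With the level dependence removed SLC30A6 passed, at 0.24 (adjusted p of 0.0295). SLC30A2, SLC30A3, SLC30A8 and SLC30A10 lay within the background range in both lines, so no fold is given. They are known for vesicles of the mammary gland, for synaptic vesicles, for insulin granules and for manganese export.

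Among the 14 SLC39A genes 2 rose and 3 fell, with a median difference of −0.05. SLC39A9, a transporter of the trans-Golgi network that has also been described as a membrane androgen receptor, had the largest difference of the family. It was 10.65, 10.85 and 10.61 in T24/THP and 9.69, 9.84 and 10.14 in T24. The lines did not overlap, although T24 replicate 3 lay closer to T24/THP than the other T24 arrays did. The difference was 0.81 ± 0.12 (SE), or 1.76-fold with a 95% interval of 1.44 to 2.15 (adjusted p of 0.00151, limma). SLC39A11 was 7.24, 7.19 and 7.09 in T24/THP and 6.86, 6.82 and 6.65 in T24, a difference of 0.40 ± 0.08 (adjusted p of 0.00527, limma). Both rises passed in all 14 alternatives.

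The importers that fell act at different membranes. SLC39A10, a plasma membrane importer, was 9.13, 9.01 and 9.39 in T24/THP and 9.80, 9.51 and 9.82 in T24. Its difference was −0.53 ± 0.12 (SE, adjusted p of 0.0124, limma), and it missed the threshold with quantile normalization (−0.39, adjusted p of 0.0552). SLC39A7, which releases zinc from the endoplasmic reticulum and Golgi, was 9.02, 9.21 and 9.09 in T24/THP and 9.49, 9.48 and 9.81 in T24. The lowest T24 array stood above the highest T24/THP array for both genes. The difference of SLC39A7 was −0.49 ± 0.10 (adjusted p of 0.00822, limma).

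SLC39A7 lies in the major histocompatibility complex, and the table holds 6 rows of it. In 5 of them, on alternative haplotypes, all values were identical, with means of 8.80 in T24/THP and 9.34 in T24. These rows are not independent of each other or of the reference row. SLC39A14, which imports zinc, iron and manganese, was 7.20, 7.21 and 7.25 in T24/THP and 7.48, 7.43 and 7.48 in T24, a difference of −0.25 ± 0.05 (adjusted p of 0.00788, limma). It was a small change with little spread, an SD of 0.03 in each line.

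SLC39A6, which forms a complex with SLC39A10 at the plasma membrane, did not fall with it. It was 9.82, 9.80 and 9.97 in T24/THP and 9.52, 9.50 and 9.90 in T24, a difference of 0.23 (95% interval −0.04 to 0.50, adjusted p of 0.189, limma). T24 replicate 3 overlapped with T24/THP, and without that array the difference was 0.36 (adjusted p of 0.00978). It also passed with quantile normalization, at 0.35 (adjusted p of 0.0327).

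SLC39A8, an importer of zinc, manganese and cadmium, had a difference of −0.04 (95% interval −0.17 to 0.10) in its named transcript cluster. An unnamed cluster that the deposited annotation places in sense on an exon of SLC39A8 (TC04002651.hg.1, chromosome 4 at 103183267 to 103183758, GRCh37) gave another value. It read 7.45, 7.50 and 7.28 in T24/THP and 7.87, 8.09 and 8.17 in T24, a difference of −0.63 ± 0.10 (SE, adjusted p of 0.00575 in the fit of all clusters). The 2 clusters of this gene thus disagree, and which of its transcripts each one reads was not tested.

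The plasma membrane importer SLC39A1 differed by −0.05 (95% interval −0.19 to 0.10), SLC39A4, the intestinal zinc importer, by −0.05 (−0.25 to 0.14), and SLC39A13, a transporter of the secretory pathway, by −0.11 (−0.32 to 0.10). SLC39A2, SLC39A3, SLC39A5 and SLC39A12 lay within the background range in both lines. None of these 7 genes passed the test.

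**Figure D2:**
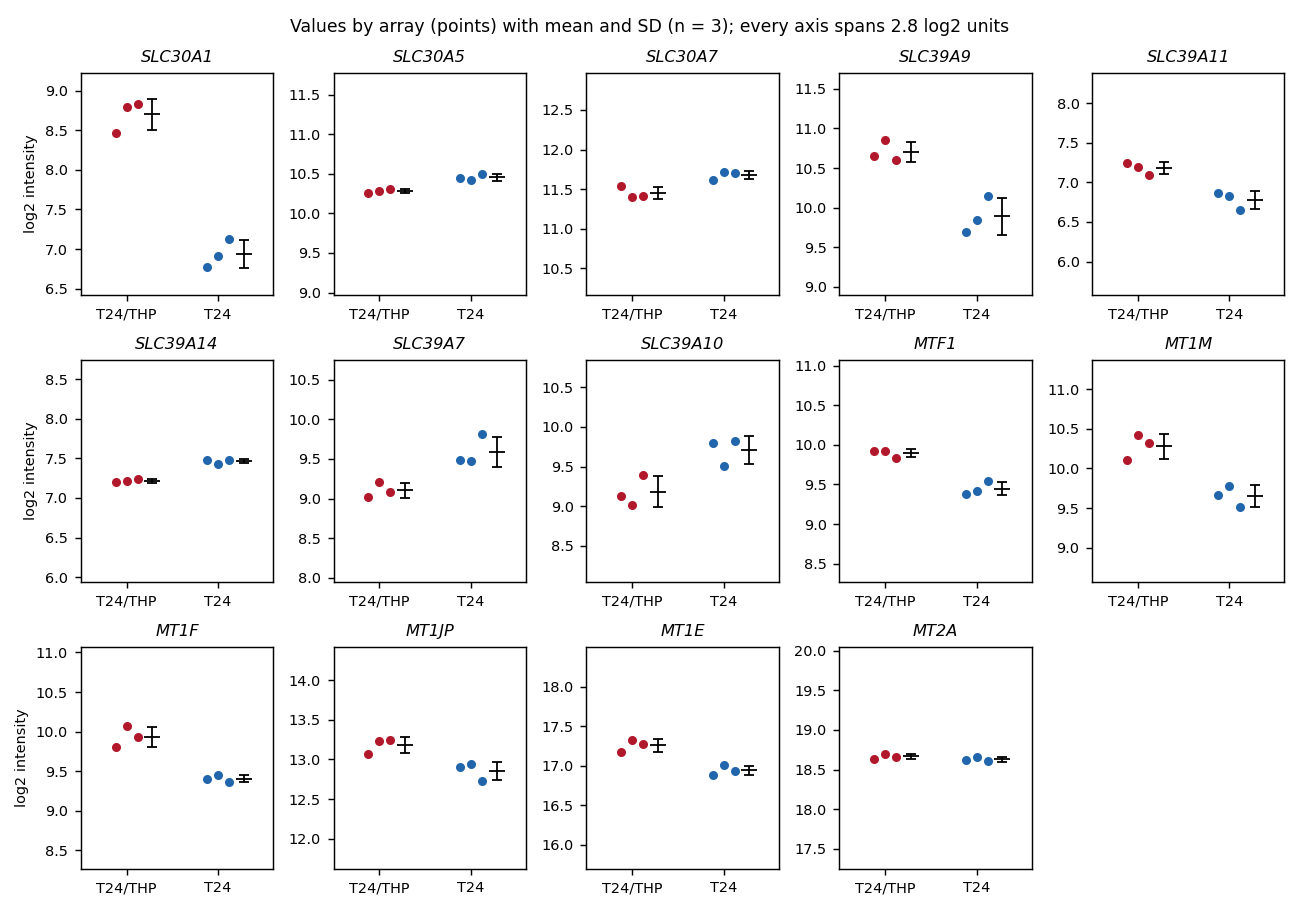
Log2 intensity (vertical axes, all of the same span) of the 13 genes that passed the test and of MT2A, with 1 point per array and the mean and SD of 3 arrays beside them, T24/THP left of T24. For SLC30A1 the lines lie far apart, at means of 8.70 and 6.94, while for MT2A they overlap at 18.67 and 18.63.

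MTF1, the zinc sensor itself, was modestly higher in T24/THP. It was 9.92, 9.92 and 9.84 in T24/THP and 9.38, 9.42 and 9.54 in T24, with no overlap. The difference was 0.45 ± 0.07 (SE), or 1.36-fold with a 95% interval of 1.23 to 1.52 (adjusted p of 0.00122, limma), and it passed in all 14 alternatives. An unnamed cluster in sense on an exon of MTF1 differed by 0.24 ± 0.08 and did not pass the fit of all clusters (adjusted p of 0.110). That cluster read 5.83, 6.01 and 6.07 in T24, close to the background range. MTF1 (TC01002526.hg.1) lies on chromosome 1 at 38275239 to 38325292 on the minus strand (GRCh37). Its promoter window held no match to the metal response element core.

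All 16 metallothionein genes had a higher mean in T24/THP, and 4 rose. Over all genes 52.7% had a higher mean and 15.1% rose. With quantile normalization 14 of the 16 had a higher mean, and 15 without T24 replicate 3. The median difference of the 16 was 0.22, and 0 of them were called in limma's test, while 5 of 16 had an unadjusted p under 0.05, against 40.3% of all genes. The genes that rose were MT1M, MT1F, MT1E and MT1JP. MT1M, MT1F and MT1E encode metal-binding isoforms of the MT1 group, while MT1JP is non-coding in the deposited annotation. MT1M was 10.11, 10.42 and 10.32 in T24/THP and 9.67, 9.78 and 9.51 in T24, a 1.54-fold difference with a 95% interval of 1.31 to 1.82 (adjusted p of 0.0022, limma). MT1F was 9.80, 10.07 and 9.93 in T24/THP and 9.40, 9.45 and 9.36 in T24, a 1.44-fold difference with an interval of 1.27 to 1.64 (adjusted p of 0.00129, limma). In both genes the lines lay apart by more than the range of either.

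MT1E was 17.17, 17.33 and 17.27 in T24/THP and 16.89, 17.01 and 16.93 in T24, a difference of 0.32 ± 0.07 (SE, adjusted p of 0.00713, limma). MT1JP was 13.07, 13.24 and 13.24 in T24/THP and 12.90, 12.94 and 12.72 in T24, a difference of 0.33 ± 0.08 (SE, adjusted p of 0.0177, limma). MT1JP no longer passed without T24/THP replicate 2 (adjusted p of 0.0654) or 3 (0.0668) and in the fit of all transcript clusters (0.053), while the other 3 passed in all 14 alternatives.

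MT2A, the main human isoform in many cell types, did not differ detectably. It was 18.64, 18.70 and 18.66 in T24/THP and 18.62, 18.66 and 18.60 in T24, and the lines overlapped. The difference was 0.04 (95% interval −0.08 to 0.16, adjusted p of 0.65, limma). These values are near the top of the scale, since 36 to 42 of the 65854 transcript clusters of an array were brighter, and the files hold no saturation flags. Any compression of differences at such levels was not tested. After removal of the level dependence of the difference MT2A was at 0.27 (adjusted p of 0.0055), the 1 of 14 alternatives in which it passed. With quantile normalization it was at −0.0000.

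Of the remaining 11 metallothionein genes, MT1X, MT1B, MT1H, MT1L, MT1CP and MT3 lay above the background range in both lines. They did not pass the test, with differences of 0.10 to 0.33. MT3, an isoform of the brain, lay close to that range, at means of 5.97 in T24/THP and 5.87 in T24, as did MT1H. In T24 replicate 3 MT3 was at 5.57, under the brightest background probe set of that array at 6.38. MT4, an isoform of squamous epithelium, lay within that range in T24 and at 5.56 in T24/THP, with a difference of 0.26 (adjusted p of 0.147). MT1A, MT1G, MT1DP and MT1IP lay within it in both lines. MT1G passed without T24/THP replicate 1 (0.31, adjusted p of 0.0455) or T24 replicate 1 (0.31, 0.0444), MT4 without T24 replicate 1 (0.36, 0.0374) and MT1X with quantile normalization (0.25, 0.0413). Most of these sequences are close paralogs, 5 of the 16 are non-coding in the annotation, and their probes may share signal, so the 16 are not separate observations.

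The metallothionein probe sets also moved together between arrays of 1 line. T24 replicate 3 was the lowest T24 array for 15 of the 16 genes, all but MT1E, against 33.0% of all genes, and T24/THP replicate 1 was the lowest T24/THP array for 14 of 16, all but MT3 and MT1IP, against 33.4% of all genes. In MT1L, for example, T24 replicate 3 was at 8.84 and the other T24 arrays at 9.40 and 9.48, while T24/THP was at 9.38, 9.70 and 9.48. Without T24 replicate 3 the median difference of the 16 genes was 0.12 rather than 0.22, and without T24/THP replicate 3 it was 0.14. Without T24/THP replicate 1 it was 0.28, without T24/THP replicate 2 it was 0.20, and without T24 replicate 1 or 2 it was 0.24 or 0.22. The median level of the 16 genes on an array had an SD of 0.21 within the line where it varied more, about as large as the median difference. The part of T24 replicate 3 in the group's direction was not tested further. MT1M, MT1F and MT1E passed without each of the 6 arrays in turn.

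**Figure D3:**
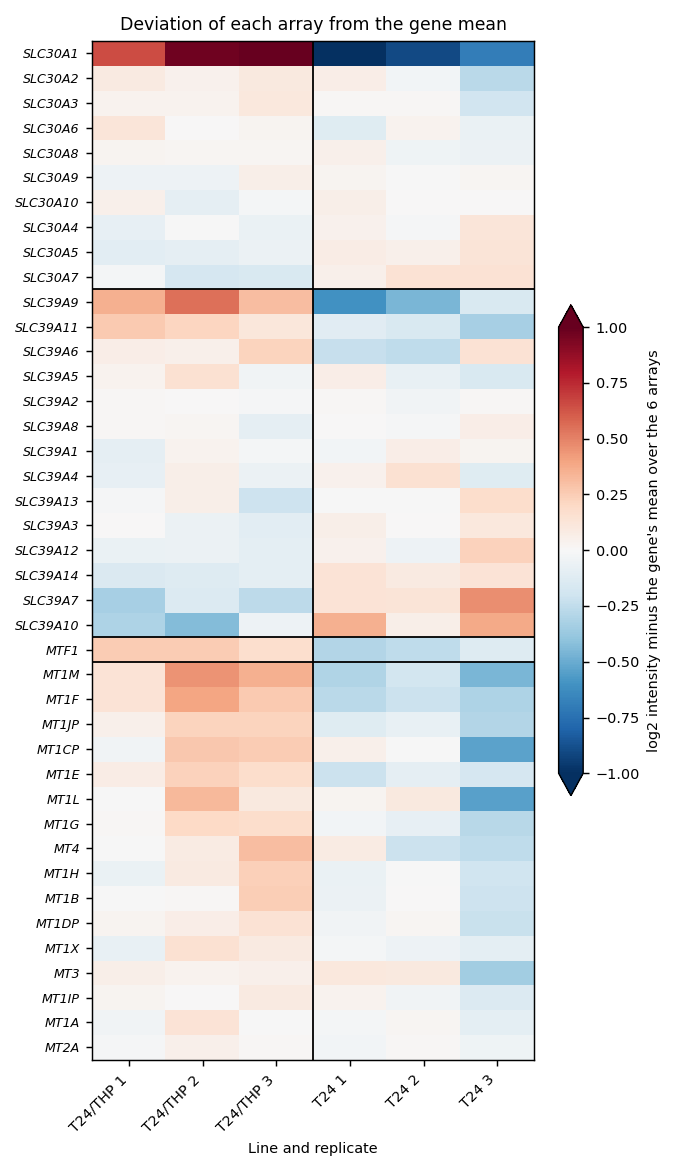
Log2 intensity of each array minus the gene's mean over the 6 arrays (colour, limited to 1 unit either way), with genes in rows by family and arrays in columns, T24/THP left of T24. The metallothionein rows are lowest in T24 replicate 3 for 15 of 16 genes, and the SLC39A rows show both directions.

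The metallothionein genes form a cluster on the long arm of chromosome 16, which here spanned 119 kb at 56598961 to 56718108 (GRCh37). Of the 4 genes that rose, MT1E, MT1M and MT1JP follow each other within it, at 60.4, 67.6 and 70.7 kb from the start of MT4. MT1F stands apart from them at 92.9 kb, between genes that did not pass. MT1M (TC16002074.hg.1) lies at 56666534 to 56667898, MT1F (TC16000473.hg.1) at 56691855 to 56693215, MT1E (TC16000468.hg.1) at 56659387 to 56661024 and MT2A (TC16002034.hg.1) at 56642111 to 56643409, all on the plus strand. The genes around the cluster went both ways. Of 21 neighbours 4 rose and 4 fell, with a median of 0.03, where 15.1% of all genes rose and 18.0% fell. NUP93, a protein of the nuclear pore, was 9.30, 9.37 and 9.17 in T24/THP and 10.14, 10.40 and 10.54 in T24, a difference of −1.08 ± 0.11 (SE, adjusted p of 0.000186, limma). It was under the 2-fold minimum without T24 replicate 3 (−0.99), with quantile normalization (−0.98) and with the level trend removed (−0.96). NLRC5, a regulator of class I antigen presentation genes that interferon induces, averaged 4.86 in T24/THP and 4.53 in T24, within the background range in both lines (adjusted p of 0.00302, limma).

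**Figure D4:**
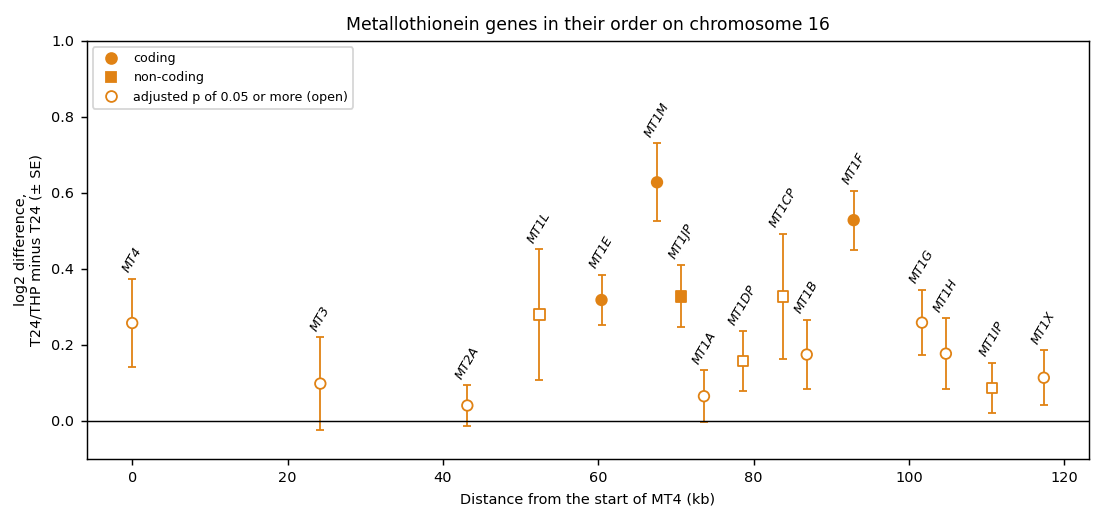
Log2 difference between T24/THP and T24 (vertical axis, ± SE) of the 16 metallothionein genes against their distance from the start of MT4 in kb (horizontal axis), with circles for coding and squares for non-coding genes and filled symbols for an adjusted p under 0.05. MT1M and MT1F stand highest at 0.63 and 0.53, and MT2A lies at 0.04.

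Promoters of 3 metallothionein genes are shown beside that of SLC30A1, because they hold the most matches to the same element core among the 27 of the 41 genes with a window. They are the 250 bases before the start in RefSeq's GRCh38.p14, all on the plus strand, at chr16:56608334-56608583 for MT2A, chr16:56669564-56669813 for MT1H and chr16:56682220-56682469 for MT1X. Capitals mark matches to TGCACNC or TGCGCNC on either strand.
MT2A: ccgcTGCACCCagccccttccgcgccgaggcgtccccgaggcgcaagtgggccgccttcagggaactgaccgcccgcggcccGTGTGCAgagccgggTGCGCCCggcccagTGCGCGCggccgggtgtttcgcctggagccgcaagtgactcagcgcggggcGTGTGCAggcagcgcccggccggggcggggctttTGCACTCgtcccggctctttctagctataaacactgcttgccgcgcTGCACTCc
MT1H: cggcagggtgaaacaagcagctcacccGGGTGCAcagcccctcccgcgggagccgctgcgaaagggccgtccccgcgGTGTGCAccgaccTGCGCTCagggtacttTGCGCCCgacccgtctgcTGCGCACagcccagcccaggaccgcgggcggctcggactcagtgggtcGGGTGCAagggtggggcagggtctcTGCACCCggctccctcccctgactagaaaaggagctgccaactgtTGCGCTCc
MT1X: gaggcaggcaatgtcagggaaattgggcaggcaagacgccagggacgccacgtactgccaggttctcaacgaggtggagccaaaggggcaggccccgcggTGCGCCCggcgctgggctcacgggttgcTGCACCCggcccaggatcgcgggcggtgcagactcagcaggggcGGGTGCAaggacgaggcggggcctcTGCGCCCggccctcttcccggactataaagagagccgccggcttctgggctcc
The full windows held 8 matches in MT2A, 8 in MT1H and 4 in MT1X, while 0.601% of all windows held at least 4 and 0.0199% at least 8. All 5 metallothionein genes with a window in the table, these and MT1B and MT4, held at least 3, which 2.30% of all windows did. MT1M, MT1F and MT1E, the coding metallothionein genes that rose, were not among those with a window and were not searched. Of 9 SLC30A genes with a window 5 had a match, and of 12 SLC39A genes 7 had one. These are counts of genes, some with several windows (11 windows for SLC30A and 19 for SLC39A). They cannot be set directly against the 29.6% of all windows with a match. The differences of MT2A, MT1H and MT1X were 0.04, 0.18 and 0.11, and that of SLC30A1, with 2 matches, was 1.76. MT2A lies near the top of the scale, and MT1H, at means of 5.96 in T24/THP and 5.78 in T24, close to the background range. Whether the number of matches bears on the differences was not tested.

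Other genes of metal handling were read from lists not chosen for how they moved in this comparison, although earlier results of these data were known. Their counts are to be read against all genes, of which 15.1% rose, 18.0% fell and 40.3% had an unadjusted p under 0.05. Of 9 further genes of zinc transport, sensing and storage 2 rose and 0 fell in limma's test, with a median of 0.03 and 2 at an unadjusted p under 0.05. These were TRPM7, above the background range, and GPR39, within it in both lines, named after their values were seen. Of 7 known regulators of metallothionein genes other than MTF1, 4 rose and 0 fell, with a median of 0.22 and 4 at an unadjusted p under 0.05. NR3C1, the glucocorticoid receptor, was among those that did not pass, at 8.28 ± 0.06 in T24/THP and 8.33 ± 0.10 in T24 (SD, n = 3 each, adjusted p of 0.673, limma). Of 8 genes described in mouse as MTF1 targets outside these families 2 rose and 1 fell, with a median of 0.11. NDRG1, a stress-induced gene that also responds to hypoxia, was 8.41, 8.56 and 8.36 in T24/THP and 7.41, 7.26 and 7.31 in T24, a 2.17-fold difference (adjusted p of 2.79e-05, limma).

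Among genes of iron handling some differences were larger than that of SLC30A1. Of 25 genes 5 rose and 7 fell, with a median of 0.03, and 1 rise and 3 falls were called, where 6.62% of all genes were. TFRC, the transferrin receptor that brings iron into cells, was 10.12, 10.09 and 9.93 in T24/THP and 12.70, 12.96 and 12.93 in T24, a difference of −2.81 ± 0.09 (SE, adjusted p of 1.34e-06, limma). ACO1, the iron regulatory protein 1 that stabilises TFRC mRNA when iron is scarce, was 10.67, 10.67 and 10.65 in T24/THP and 12.87, 12.90 and 12.98 in T24, a difference of −2.25 ± 0.06 (adjusted p of 4.17e-07, limma). The lines lay at least 2 units apart in both genes.

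CYBRD1, a ferric reductase, was 11.85, 12.12 and 11.87 in T24/THP and 10.37, 10.40 and 10.47 in T24, a 2.89-fold difference (adjusted p of 1.27e-05, limma). HMOX1, the haem-degrading enzyme that oxidants induce, averaged 4.51 in T24/THP and 4.44 in T24, both in the background range (adjusted p of 0.484, limma). Of 14 copper genes 3 rose and 3 fell, with a median of −0.11. Those that rose, ATP7B, STEAP2 and CP, lay within the background range in both lines, and those that fell, SLC31A1, SCO1 and COMMD1, above it, all 6 named after their values were seen. Of 13 magnesium and manganese genes 3 rose and 2 fell, with a median of 0.06. Limma called 0 genes of these 2 lists, while 10 of 14 copper genes and 5 of 13 magnesium and manganese genes had an unadjusted p under 0.05, against 40.3% of all genes.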

How the data were processed

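The data are 6 Affymetrix arrays, 3 of T24/THP and 3 of T24, hybridised with material that was labelled, per the labels' protocols, using Affymetrix's WT PLUS reagents. The deposited table holds a log2 intensity for each transcript cluster on each array, which the authors name as normalized. The submitters' processing notes name Affymetrix Expression Console, with no algorithm or settings stated. Values reached 19.8 to 19.9 log2 units on the arrays, and whether a transformation of the signal stretches or compresses the differences was not tested, so every printed fold is on the deposited scale. Coordinates are those of the deposited table, whose text names GRCh37.

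Transcript clusters with 1 symbol (26515 of 65854) were kept, symbols were updated through RefSeq (GRCh38.p14, names only), and a gene was represented by its brightest cluster, for 24930 genes in all. Dim genes were kept. The lines were set against each other in a two-sided limma fit (version 3.58.1, R 4.3.3, lmFit then eBayes) without covariates, and p-values were adjusted by Benjamini and Hochberg's method across all genes. The fit was tested on simulated data. Background control probe sets came from the deposited series table, whose log2 values differed from the first table's by at most 0.00005. Every gene of the families was named, and of the other lists the called genes with the largest differences, up to 3 per direction, with NR3C1, HMOX1, TFRC and NLRC5. The values of 1 such gene are not reported here. The genes and lists were chosen with earlier results of these data known. Alternatives were quantile normalization, removal of the level trend, an offset of 32 on the linear scale, a filter at the 50th percentile of level, the mean over a gene's clusters, an intensity trend with robust estimation, the replicate number as a block, a test against a 2-fold difference, each array left out, and a fit of all 65854 clusters, the last chosen after the data were seen. Precision is limited by having 3 arrays of each line.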

Additional observations from a re-analysis of the deposited data

How the results depend on the processing

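SLC30A1 remained the only called gene of the 41 under all 15 alternatives, with a log2 difference of 1.53 to 1.87 where the difference was refitted. Of 564 refitted differences of single genes, 533 stayed on their side of the threshold, 23 lost it and 8 gained it. In none did a value past the threshold change direction, and the 11 changes of sign were of values that did not pass. The number of the 41 genes that fell was 5, and became 2 with quantile normalization, 3 with the level trend removed, 3 in the fit of all transcript clusters, and 3 to 4 when 1 array was left out. SLC30A5 and SLC30A7 account for most of the losses. The number that rose was 7 to 10 when 1 array was left out. The test against a 2-fold difference itself left 356 higher and 382 lower genes over the whole table in place of 710 and 941, and 1 higher and 2 lower on the metal and neighbour lists, TFRC, ACO1 and CYBRD1. The offset of 32 left 1 higher gene on these lists, since NDRG1 dropped to 0.98. SLC41A2, at 0.99, was called in 5 alternatives, at up to 1.04. The replicate number as a block left 3 falls among the 41 genes, without SLC30A5 (adjusted p of 0.0879) and SLC30A7 (0.0762), and 7733 rather than 8246 genes past the test over the whole table. The labels state no pairing by replicate number. The deviations of same-numbered arrays correlated at 0.04, 0.151 and 0.019. T24/THP replicates 1 and 2 correlated best with the T24 array of their own number, and T24/THP replicate 3 with T24 replicate 1 (0.107). With 3 arrays of each line these values cannot decide whether the arrays were paired. The number of genes in the background range was 12, and 10 with the 90th percentile of the background probe sets. Signal near the background limits the genes that lay within it, and closeness to the top of the scale limits MT2A.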
